A study of Homo sapiens with 12 samples.

Results

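The transcripts described here are 9 genes used as markers of injured or regenerating kidney tubule cells: HAVCR1, LCN2, CLU, SPP1, VCAM1, CD44, SOX9, CD24 and PROM1. They were followed in the human line HK-2, which is derived from proximal tubule epithelium of the kidney and immortalized. It is a single line in culture and models neither the other cell types of a kidney nor more than 1 genetic background. The members were chosen by symbol: every probe set on the array annotated to 1 of the 9 symbols alone was taken, which gave 31 probe sets. The 9 genes are part of 19775 genes with a named probe set. Affymetrix expression arrays measured 4 groups of 3 biological replicates each: a low dose of Kbr for 24 h, its vehicle for 24 h, a low dose of Kbr for 48 h, and its vehicle for 48 h. Cells of every group grew in the same medium, with epidermal growth factor, hydrocortisone, insulin, transferrin and selenite, and were near confluence at the start of exposure. What Kbr stands for and at what concentration it was given is not stated in the labels used here. The labels call the replicates biological without saying how the cultures were separated, so p-values measure the spread between these arrays.

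Injured tubule cells lose their brush border and transport functions, and survivors can dedifferentiate, spread and divide to cover the gap. HAVCR1 (also known as kidney injury molecule 1) and LCN2 (a secreted carrier of iron-binding siderophores) are used as urinary signs of this state, while the adhesion molecules VCAM1 and CD44 appear on injured tubule cells. SOX9 is a transcription factor of regenerating tubule cells, and CD24 and PROM1 mark scattered progenitor-like cells of the human tubule.

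Values are the log2 expression values as deposited, so that a difference of 1 is a 2-fold difference, and fold changes of probe sets near a log2 value of 4 depend on the background model. Array medians lay between 2.91 and 2.99, and Pearson's r between arrays of the same group was 0.982 to 0.993. A gene was tested when its brightest probe set lay above 4 on at least 3 of the 12 arrays, which 8 of the 9 members and 10665 of the 19775 genes did. Tests are those of limma with Benjamini-Hochberg adjustment over all genes tested, at 0.05. Of 16 proximal tubule and kidney epithelium markers with a probe set, KRT18, KRT8, DPP4, PAX8 and SLC3A1 lay above 4 on all 12 arrays and the other 11, among them the endocytic receptors LRP2 and CUBN and the water channel AQP1, lay at or below 4 on all 12. Most defining transport and endocytosis markers of the labelled cell type were thus not measured above that level. Markers of endothelium (5 of 5), of leukocytes (3 of 3) and of later nephron segments (3 of 4) were at or below 4 on all arrays. The ACTB 3′ minus 5′ log2 difference, a sign of RNA quality, was 0.748 to 0.975 in 24 h Kbr arrays, against 0.674 to 0.992 in 24 h controls, and 0.779 to 1.07 in 48 h Kbr arrays, against 0.697 to 1.04 in 48 h controls, so these ranges overlapped. By pair of the same replicate number it was higher in the Kbr array in 2 of 3 pairs at 24 h and in 3 of 3 at 48 h, where the pairs stood at 0.875, 1.07 and 0.779 in Kbr arrays, against 0.709, 1.04 and 0.697 in controls. Its part in the results was not tested.

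The first comparison asked which injury markers differed between Kbr and vehicle after 24 h. VCAM1, an adhesion receptor for leukocyte integrins, fell and was the only member to pass the test (1 of 8). Genes passing in either direction made up 5.74% of all genes tested, and those passing as lower 3.25%. In 6 of the 8 members the change was below 0, as in 52.6% of all genes tested, and the median change of the 8 was -0.35 on the log2 scale, against -0.016 over all genes tested. In 4 of the 8 members all 3 Kbr arrays lay below all 3 controls, a pattern seen in 15.9% of all genes tested. With the replicate number as a block in the fit, HAVCR1 also passed, so 2 of 8 were called. Of all genes tested, that fit called 24.4% in either direction and 14% as lower.

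The second comparison asked the same after 48 h, when 5 of the 8 members had fallen and none had risen: VCAM1, HAVCR1, CD24, CLU and SOX9. Of all genes tested, 42.8% passed in either direction and 20.8% as lower. The median change of the 8 was -0.94 on the log2 scale, against -0.00384 over all genes tested. In those 5 members every Kbr array lay below every control on the brightest probe set, as in 24.9% of all genes tested. With the replicate block PROM1 passed as well, giving 6 of 8, where that fit called 57.5% of all genes and 28.8% as lower. Since the cells were measured in bulk, fewer cells of a type and less RNA per cell cannot be told apart.

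**Figure D1:**
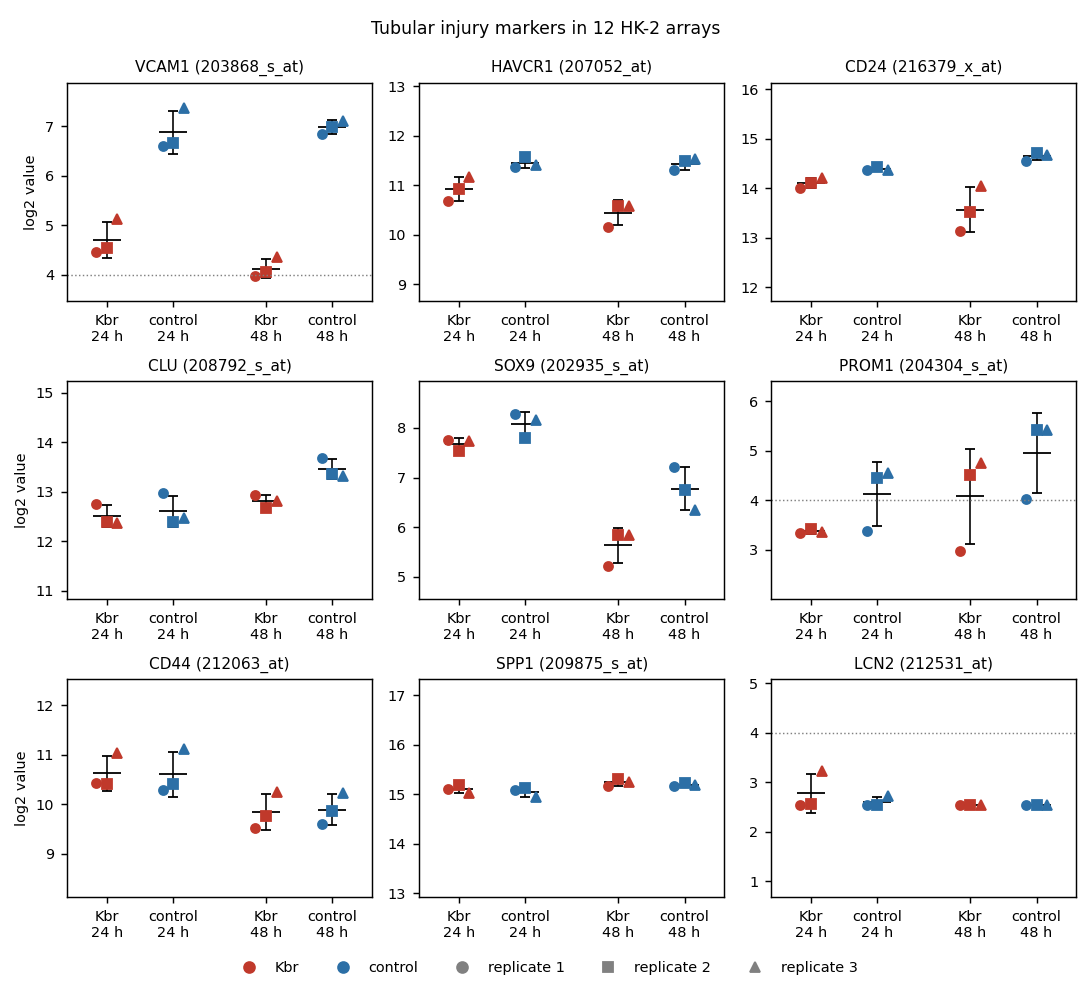
Log2 expression values of the 9 markers on each of the 12 arrays, Kbr and then control at 24 h and at 48 h, with the mean of each group of 3 and each panel spanning the same width in log2 units. All 3 Kbr arrays lie below all 3 controls at both times in VCAM1, HAVCR1, CD24 and SOX9, and in CLU at 48 h, while LCN2 stays at or under 3.22.

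VCAM1 (gene ID 7412) had 1 probe set. It stood at 4.46, 4.53 and 5.13 in 24 h Kbr cells, against 6.60, 6.66 and 7.37 in 24 h controls. After 48 h it stood at 3.97, 4.05 and 4.35 in Kbr cells, against 6.84, 6.99 and 7.12 in controls. The groups did not overlap at either time, and the lowest control array lay above the highest Kbr array by more than 1 log2 unit. The log2 change was -2.17 (standard error 0.23) at 24 h, or 4.50-fold lower, with an adjusted p of 0.00168 in limma. At 48 h it was -2.86 (standard error 0.23), or 7.25-fold lower (adjusted p = 2.82e-05). Among the 10665 genes VCAM1 ranked 4 from the most lowered at 24 h and 15 at 48 h. The 48 h Kbr mean of 4.13 lies close to the filter level of 4, so the size of that fold depends on the background model. Leaving out 1 array at a time, VCAM1 passed in 12 of 12 fits at both times.

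Fibroblasts also make VCAM1, and 2 of the 5 fibroblast markers, COL1A1 and DCN, were above 4 on all arrays while the other 3 were at or below 4 on all. The summed level of the 5 was 11.4 to 11.8 on the log2 scale in 24 h Kbr cells, against 12.1 to 12.6 in controls, and 10.2 to 10.7 in 48 h Kbr cells, against 12.1 in every 48 h control. The sum of the 16 proximal tubule and kidney epithelium markers was also lower at 24 h, at 13.94 to 14.09 against 14.12 to 14.315 in controls. At 48 h that sum overlapped, at 13.76 to 14.10 in Kbr cells against 13.81 to 14.15 in controls. COL1A1, a fibrillar collagen chain, had a log2 change of -1.30 at 24 h (adjusted p = 0.00889) and -2.06 at 48 h (adjusted p = 7.34e-05), and DCN, a matrix proteoglycan, of -0.73 (adjusted p = 0.0408) and -1.69 (adjusted p = 0.000107). Their part in the results of VCAM1 and the other members was not tested.

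The upstream sequences of VCAM1, which fell most, and of HAVCR1, the other single-probe-set marker that fell, are given because VCAM1 transcription is known to run through NF-kB sites just upstream of its start. They are from RefSeq, build GRCh38.p14, and show 250 bases before the start, at chr1:100719492-100719741 on the plus strand for VCAM1 and chr5:157059117-157059366 on the minus strand for HAVCR1. Capitals mark matches to the letters searched on both strands. Of the 9 genes, 7 had a promoter in the sequence table, with 12 start sites. CLU and SOX9 had none there and were not searched.
VCAM1: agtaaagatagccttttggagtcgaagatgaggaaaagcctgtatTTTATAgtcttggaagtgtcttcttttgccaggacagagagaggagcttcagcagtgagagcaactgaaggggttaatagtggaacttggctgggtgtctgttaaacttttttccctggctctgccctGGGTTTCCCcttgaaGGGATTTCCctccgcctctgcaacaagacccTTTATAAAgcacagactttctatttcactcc
HAVCR1: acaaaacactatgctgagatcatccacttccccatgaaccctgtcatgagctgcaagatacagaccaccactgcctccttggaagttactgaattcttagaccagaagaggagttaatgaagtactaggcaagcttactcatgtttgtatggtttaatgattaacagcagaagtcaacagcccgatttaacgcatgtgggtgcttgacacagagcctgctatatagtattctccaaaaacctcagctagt

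The letters searched were the NF-kB forms GGGATTTCC and GGGTTTCCC, the TATA box TATAAA, AP-1 as TGANTCA and the antioxidant response element core as TGACNNNGC. The first NF-kB form was found at positions -62 to -54 of VCAM1 and the second at -77 to -69, counted from the start, and TATAAA at -29 to -24 and on the minus strand at -31 to -26, where the matches overlap, and at -205 to -200. These forms were chosen with the VCAM1 promoter known. Among all 35116 promoters of the table, 0.327% hold the first form, 0.416% the second, 10.7% TATAAA, 6.57% TGANTCA and 10.9% TGACNNNGC. Elsewhere among the members, TGANTCA was found upstream of LCN2 and of a PROM1 start site. TGACNNNGC was found upstream of CD44 and of start sites of CD24 and PROM1, and SPP1 had no match. In HAVCR1 none of these letters was found in the window. That window precedes the only HAVCR1 start site in the sequence table. It lies within the span of the gene (chr5:157029413-157069407), so sequence upstream of the outer end of the gene was not searched.

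HAVCR1 (gene ID 26762), a receptor for phosphatidylserine that lets tubule cells take up dying neighbours, had 1 probe set. It stood at 10.69, 10.92 and 11.16 in 24 h Kbr cells, against 11.38, 11.58 and 11.40 in controls. After 48 h it stood at 10.15, 10.59 and 10.59 in Kbr cells, against 11.30, 11.48 and 11.53 in controls. The Kbr arrays lay below the controls at both times and the control means differed between times by -0.01 (48 h minus 24 h). At 24 h the log2 change was -0.53 (standard error 0.15), with a 95% interval of -0.86 to -0.20 and an adjusted p of 0.0618, past the threshold with the replicate block (adjusted p = 0.00683). At 48 h it was -0.995 (standard error 0.15), or 1.99-fold lower, with an adjusted p of 0.000553.

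CD44 (gene ID 960), the receptor for the matrix sugar hyaluronan, had 13 probe sets, of which 8 passed the filter. Its brightest stood at 10.44, 10.41 and 11.04 in 24 h Kbr cells, against 10.29, 10.41 and 11.12 in controls, and at 9.53, 9.76 and 10.24 in 48 h Kbr cells, against 9.60, 9.87 and 10.22 in controls. The groups overlapped at both times. The log2 change was 0.02 at 24 h (95% interval -0.58 to 0.62; adjusted p = 0.976) and -0.05 at 48 h (95% interval -0.65 to 0.55; adjusted p = 0.903). The log2 changes of the 8 probe sets ran from -0.20 to 0.17 at 24 h and from -0.11 to 0.11 at 48 h, on both sides of 0. The 5 CD44 probe sets below the filter lay between 1.84 and 3.15 on every array.

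Among the secreted markers, CLU (gene ID 1191), a chaperone that binds stressed proteins outside the cell, had 4 probe sets, of which 3 passed the filter. Its brightest stood at 12.76, 12.39 and 12.37 in 24 h Kbr cells, against 12.97, 12.39 and 12.46 in controls, where the groups overlapped (log2 change -0.10, adjusted p = 0.776). After 48 h it stood at 12.94, 12.66 and 12.81 in Kbr cells, against 13.69, 13.36 and 13.31 in controls, with no overlap. The 48 h log2 change was -0.65 (standard error 0.17), or 1.57-fold lower (adjusted p = 0.0118), and the 3 probe sets fell by 0.65 to 0.83 on the log2 scale.

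SPP1 (gene ID 6696), or osteopontin, a secreted ligand of integrins and of CD44, had 2 probe sets. The bright one stood at 15.11, 15.19 and 15.03 in 24 h Kbr cells, against 15.08, 15.13 and 14.94 in controls, and at 15.17, 15.31 and 15.26 in 48 h Kbr cells, against 15.17, 15.23 and 15.19 in controls. It lay 0.82 to 1.18 log2 units below the brightest probe set of each array. Its change was 0.06 at 24 h (95% interval -0.13 to 0.25; adjusted p = 0.734) and 0.05 at 48 h (95% interval -0.14 to 0.24; adjusted p = 0.664). The dim one, of the kind named _x_at that can bind several transcripts, stood at 6.33, 6.91 and 7.16 in 48 h Kbr cells, against 5.46, 6.47 and 6.22 in controls, and its groups overlapped. Its log2 change at 48 h was 0.75 (standard error 0.25; adjusted p = 0.0351 over 19521 probe sets). No other of the 24 member probe sets tested was called as higher at 24 or 48 h. At 24 h it stood at 6.47, 6.36 and 6.32 in Kbr cells, against 6.30, 6.21 and 6.30 in controls (adjusted p = 0.849 over probe sets).

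LCN2 (gene ID 3934), the siderophore carrier, had 1 probe set, which was below the filter on every array. It stood at 2.54, 2.55 and 3.22 in 24 h Kbr cells, against 2.53, 2.54 and 2.71 in controls, and at 2.54, 2.55 and 2.54 in 48 h Kbr cells, against 2.53, 2.54 and 2.55 in controls. Every value lies below a log2 value of 4, so no difference could be read at this level, and it was not tested.

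SOX9 (gene ID 6662) fell with Kbr at 48 h. Its brighter probe set stood at 7.75, 7.53 and 7.74 in 24 h Kbr cells, against 8.27, 7.81 and 8.16 in controls, with no overlap though the change missed the threshold (log2 change -0.41, standard error 0.23, adjusted p = 0.310). After 48 h it stood at 5.22, 5.83 and 5.84 in Kbr cells, against 7.22, 6.76 and 6.35 in controls. There the log2 change was -1.14 (standard error 0.23), or 2.21-fold lower (adjusted p = 0.00269). The second probe set had a log2 change of -0.50 at 48 h (adjusted p = 0.0856 over probe sets, and 0.0330 with the replicate block). It stood at 6.09, 6.04 and 5.87 in 48 h Kbr cells, against 6.98, 6.55 and 5.98 in controls, and those groups overlapped.

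CD24 (gene ID 100133941), a small glycoprotein anchored in the membrane, had 6 probe sets, 3 of them of the _x_at kind, and the gene table lists 5 CD24 pseudogenes, so its signal may be shared. The brightest stood at 13.999, 14.11 and 14.22 in 24 h Kbr cells, against 14.38, 14.43 and 14.38 in controls, with no overlap though the change missed the threshold (log2 change -0.29, adjusted p = 0.366). After 48 h it stood at 13.13, 13.53 and 14.05 in Kbr cells, against 14.56, 14.72 and 14.67 in controls. The log2 change was -1.08 (standard error 0.18), or 2.11-fold lower (adjusted p = 0.000982). All 6 probe sets fell at 48 h, by 1.00 to 1.35 on the log2 scale.

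PROM1 (gene ID 8842), a membrane protein of cell protrusions, had 1 probe set that passed the filter because of arrays other than those of 24 h Kbr cells, where all 3 values lay below 4. It stood at 3.33, 3.42 and 3.36 in 24 h Kbr cells, against 3.38, 4.45 and 4.55 in controls, and at 2.98, 4.50 and 4.75 in 48 h Kbr cells, against 4.03, 5.43 and 5.43 in controls. The log2 change was -0.75 (standard error 0.50, adjusted p = 0.392) at 24 h and -0.88 (standard error 0.50, adjusted p = 0.178) at 48 h, where the replicate block gave an adjusted p of 0.0237. With 1 array left out the 48 h change ranged from -1.35, without control replicate 1, to -0.33, without Kbr replicate 1, and the 24 h change from -1.13 to -0.54. Replicate 1 was the lowest array in each of the 4 groups, and the groups overlapped at both times. In pairs 1, 2 and 3 of the same replicate number PROM1 changed by -0.05, -1.03 and -1.18 at 24 h. At 48 h the pairs changed by -1.04, -0.92 and -0.68.

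**Figure D2:**
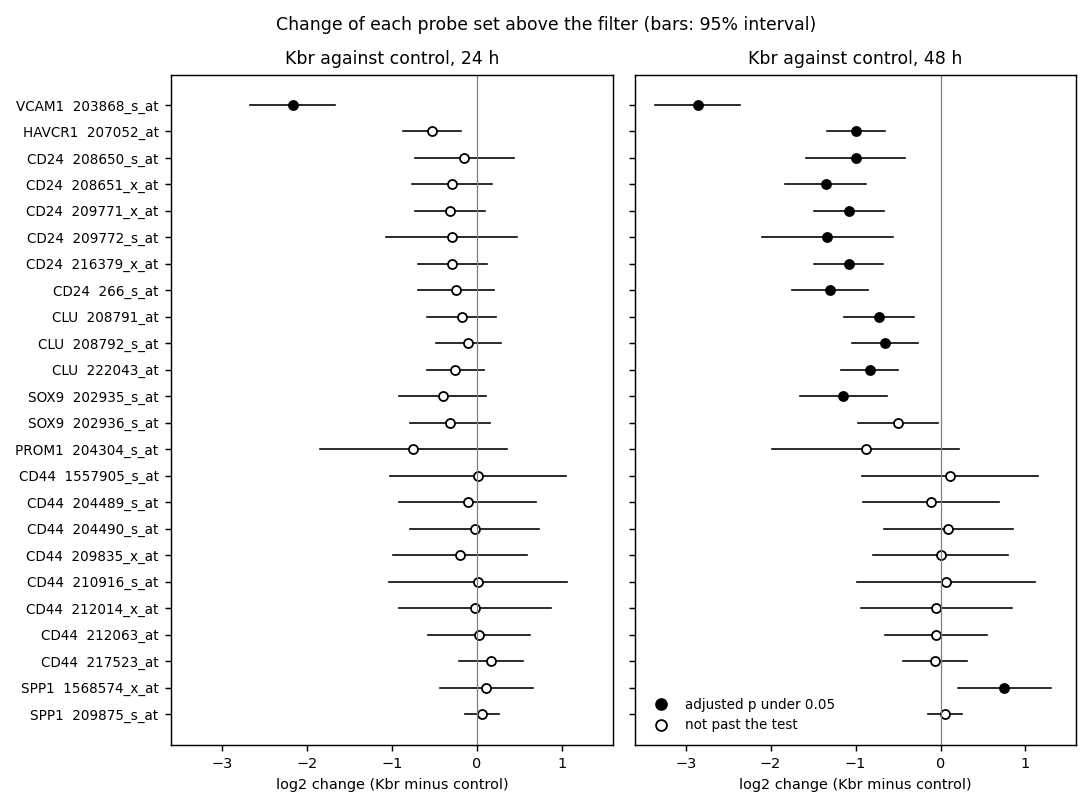
Log2 change, Kbr minus control, of the 24 probe sets of the members above the filter at 24 h and at 48 h, with 95% intervals, filled where the adjusted p over probe sets is under 0.05. At 24 h the VCAM1 probe set passes, and at 48 h those of VCAM1, HAVCR1, CD24 and CLU, 1 of SOX9 and 1 of SPP1 do, the last as higher.

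Over probe sets, 1 of the 24 was called at 24 h (all probe sets 3.74%) and 13 at 48 h (all probe sets 38.6%), 12 of these lower (all probe sets 17.5%) and 1 higher (all probe sets 21%). Probe sets of 1 gene are not independent, since 8 of the 24 belonged to CD44 and 6 to CD24. In pairs of the same replicate number, 6 of the 8 tested members were lower with Kbr in 3 of 3 pairs at 24 h and at 48 h, as were 35.7% and 36.6% of all genes tested. At 24 h this includes pairs close to 0, at -0.00 for pair 2 of CLU and at -0.05 for pair 1 of PROM1, whose values there lay below 4. SPP1 was higher in 3 of 3 pairs at both times, as were 31.2% of all genes at 24 h and 36.5% at 48 h, with differences of 0.0027 to 0.09. VCAM1 changed by -2.14, -2.13 and -2.24 in pairs 1, 2 and 3 at 24 h and by -2.86, -2.94 and -2.77 at 48 h. SOX9 was less even at 48 h, at -1.998, -0.92 and -0.51. CD24 ran in the same direction in all pairs, at -1.43, -1.19 and -0.62 at 48 h. Some members differed between replicate numbers in all groups: CD44 and VCAM1 were highest in replicate 3 in 4 of 4 groups, CLU in replicate 1 and SPP1 in replicate 2. The range of the means of the replicate numbers was widest in PROM1, at 1.09 log2 units, and was 0.11 in SPP1.

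The third comparison asked whether the Kbr effect grew between 24 and 48 h, and no member passed it (0 of 8 in limma; 0.141% of all genes passed). The estimate is the 48 h effect minus the 24 h effect. It had an unadjusted p under 0.05 in 3 members, CD24, SOX9 and CLU, as in 16.1% of all genes tested. It was below 0 in 8 of 8 members, against 48.1% of all genes, but SPP1 stood at -0.0068 and, with 1 array left out, SPP1 ranged up to 0.05, CD44 up to 0.13 and PROM1 up to 0.42. For VCAM1 the difference of the effects was -0.69 (95% interval -1.39 to 0.01; adjusted p = 0.321), and for CD24 -0.79 (adjusted p = 0.186). With the replicate block, which called 7.36% of all genes, CLU (-0.55, adjusted p = 0.0306) and VCAM1 (adjusted p = 0.0386) passed as lower, as 3.95% of all genes did.

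Between 24 and 48 h within a treatment, controls changed in CLU and SOX9 (2 of 8; 3.29% of all genes). CLU was higher at 48 h by 0.85 on the log2 scale (adjusted p = 0.0341) and SOX9 lower, at -1.31 (adjusted p = 0.0201). With 1 array left out at a time, CLU passed in 6 of 12 fits (adjusted p up to 0.153) and SOX9 in 9 of 12 (up to 0.0998). In Kbr cells SOX9 fell by 2.04 (adjusted p = 0.00172), the only member called (1 of 8; 10.6% of all genes). With the replicate block CD44 was also called in controls (-0.71, adjusted p = 0.00122; 3 of 8, against 22.5% of all genes). That fit called 6 of 8 in Kbr cells, against 30.7% of all genes: CD24 (-0.54, adjusted p = 0.0272), CD44 (-0.78, adjusted p = 0.000685), HAVCR1 (-0.48, adjusted p = 0.00763), SOX9 and VCAM1 (-0.58, adjusted p = 0.00614) lower, and CLU (0.30, adjusted p = 0.0246) higher. SOX9 thus fell with time in both treatments, and its order of levels was 24 h control, 24 h Kbr, 48 h control and 48 h Kbr from high to low, of which the 2 groups at 24 h did not pass the test and the middle pair was not tested.

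**Figure D3:**
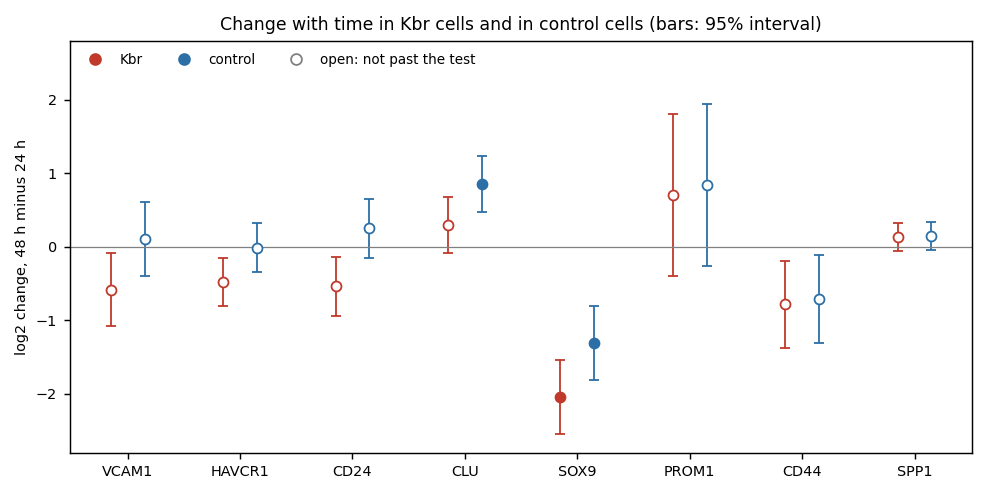
Change of each tested member between 24 and 48 h, 48 h minus 24 h, in Kbr cells and in controls, with 95% intervals. SOX9 is lower at 48 h in both, and CLU is higher at 48 h in controls.

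Beside the 9 markers, 4 lists of related genes were counted, all chosen with earlier results known. At 24 h 2.48% of all genes tested rose and 3.25% fell, and at 48 h 22% rose and 20.8% fell. Under the replicate block 10.4% rose and 14% fell at 24 h, and 28.7% rose and 28.8% fell at 48 h. Of 15 other secreted or urinary kidney injury markers, 10 were tested. None was called at 24 h by limma (0 of 10, with 3 at an unadjusted p under 0.05; 1 higher and 1 lower with the replicate block), and 4 fell at 48 h (2 higher and 7 lower with the replicate block; median change -0.55). CCL2, a chemokine for monocytes, stood at 4.25, 5.12 and 5.60 in 48 h Kbr cells, against 6.87, 8.49 and 7.01 in controls. CHI3L1, a chitinase-like secreted protein, stood at 7.10, 7.53 and 7.52 in Kbr cells, against 9.02, 8.95 and 9.50 in controls. The log2 change was -2.47 for CCL2 (standard error 0.51, adjusted p = 0.00301) and -1.77 for CHI3L1 (standard error 0.16, adjusted p = 5.49e-05). The lowest CCL2 array, at 4.25, lay close to the filter level, so the size of its fold depends on the background model. The protease inhibitor TIMP2 and the IGF-binding protein IGFBP7, which are measured together in urine as markers of cell cycle arrest, also fell, by 1.27 (adjusted p = 0.000265) and 0.56 (adjusted p = 0.0190). IGFBP7 passed in 9 of 12 fits with 1 array left out (adjusted p up to 0.0685).

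Of 24 other genes of injured or repairing tubule cells, 22 were tested: 4 fell at 24 h (0 rose) and 3 rose and 9 fell at 48 h, with median changes of -0.16 and -0.19. With the replicate block the counts were 1 higher and 9 lower at 24 h, and 5 higher and 11 lower at 48 h. The 24 h falls were in the transcription factor SOX4, the complement protein C3, the ciliary microtubule protein DCDC2 and the keratin KRT19, with log2 changes of -0.58, -0.85, -0.62 and -0.85 and adjusted p of 0.0245, 0.0284, 0.0289 and 0.0363. They passed in 8, 7, 7 and 6 of 12 fits with 1 array left out. At 48 h C3 stood at 9.49, 9.36 and 10.02 in Kbr cells, against 11.53, 11.74 and 11.94 in controls, and HBEGF, a growth factor that feeds the epidermal growth factor receptor, stood at 8.28, 8.21 and 8.01 in Kbr cells, against 5.95, 5.96 and 6.83 in controls. HBEGF rose by 1.92 on the log2 scale (adjusted p = 0.00299) and C3 fell by 2.12 (adjusted p = 4.06e-05). DCDC2 and the integrin subunit ITGB8 also fell at 48 h, by 1.22 and 0.80.

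Of 24 binding partners and sheddases of the markers, 16 were tested: 1 fell at 24 h, and 2 rose and 4 fell at 48 h, with median changes of -0.20 and -0.09. RDX, which links CD44 to the cell skeleton, fell at both times, by 0.49 (adjusted p = 0.0127, passed in 10 of 12 fits with 1 array left out) and 0.43 (adjusted p = 0.00251). The integrin subunit ITGB1 fell at 48 h by 0.41 (adjusted p = 0.00585), and the protease MMP7, at 7.25, 7.82 and 8.44 in 48 h Kbr cells, against 8.54, 9.37 and 9.34 in controls, fell by 1.25 (adjusted p = 0.00815). LRP8, a receptor of CLU, rose at 48 h by 1.03 on the log2 scale (adjusted p = 0.00392). The counts under the replicate block were 1 higher and 3 lower at 24 h, and 2 higher and 6 lower at 48 h.

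Of 19 NF-kB response genes, 15 were tested and 0 passed at 24 h in limma, also with the replicate block and at an unadjusted p under 0.05 (median change 0.08). At 48 h 4 rose and 2 fell, or 6 and 4 of 15 with the replicate block, set against the shares of all genes above (median change 0.07). CXCL2, a neutrophil chemokine, stood at 11.49, 11.08 and 10.27 in 48 h Kbr cells, against 9.40, 9.06 and 9.76 in controls, and CXCL8, another, at 13.52, 13.26 and 13.00 in Kbr cells, against 12.45, 12.54 and 12.80 in controls. They rose by 1.54 (adjusted p = 0.00203) and 0.66 (adjusted p = 0.00513), both on probe sets of the _x_at kind, which can bind several transcripts. CCL20, a lymphocyte chemokine, stood at 7.35, 7.09 and 4.83 in 48 h Kbr cells, against 4.27, 4.93 and 3.998 in controls. It rose by 2.02 (adjusted p = 0.0106) although its groups overlapped. Its control values reached down to about 4, so the size of that fold depends on the background model. CCL2 is also on this list, so its members moved in both directions. ICAM1, an adhesion receptor like VCAM1, had log2 changes of 0.14 at 24 h (adjusted p = 0.790) and -0.13 at 48 h (adjusted p = 0.705).

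**Figure D4:**
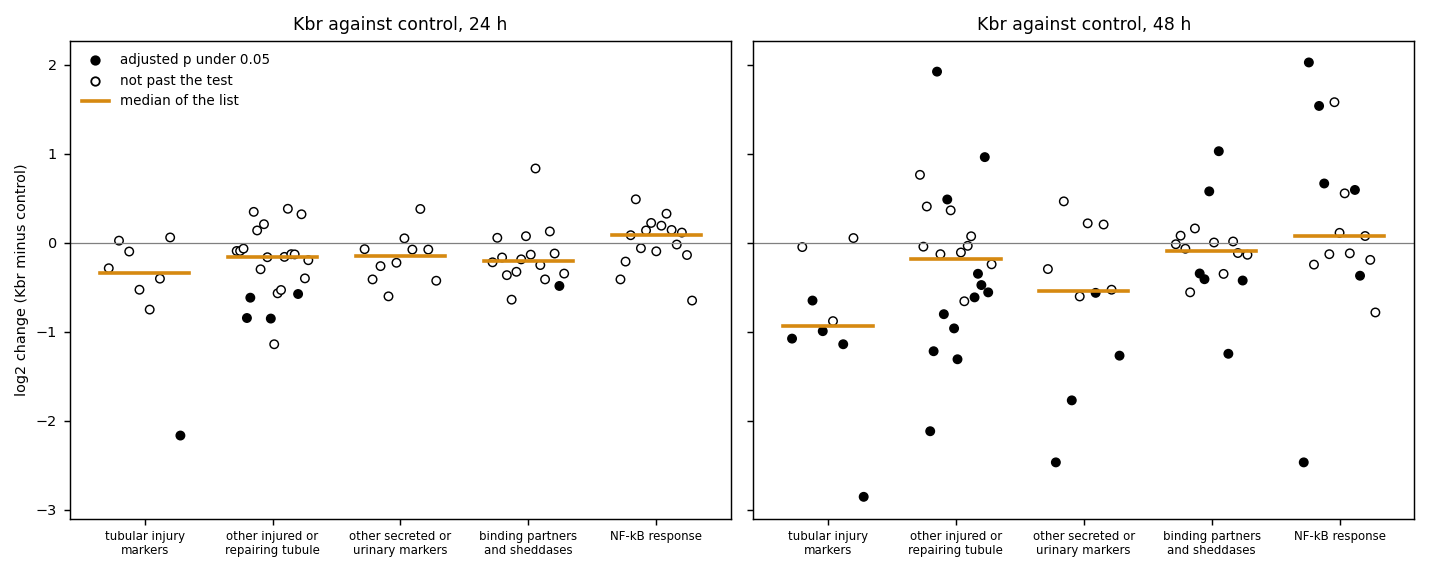
Log2 change, Kbr minus control, of each tested gene of the 9 markers and of the 4 related lists at 24 h and 48 h, filled where the adjusted p is under 0.05, with the median of each list as a bar. The medians of the injury markers are -0.35 at 24 h and -0.94 at 48 h, against 0.08 and 0.07 for the NF-kB response genes.

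For each tested member, the 2 genes most like it over the 12 arrays by Pearson's r were TNFSF10 and NDUFA7 for HAVCR1 (both 0.97), PTCH1 and TNFRSF14 for CLU (both 0.97), SLC38A2 and TAGLN3 for SPP1 (both 0.93), and TNC and ACLY for VCAM1 (both 0.98). They were GLIPR1 and TUBB2A for CD44 (both 0.97), MORC4 and RSPO3 for SOX9 (both 0.95), BRK1 and TGFBR2 for CD24 (both 0.99), and HLA-DMA and MAP3K1 for PROM1 (0.88 and 0.87). These are the highest of 10665 values for each member, the arrays share the same 4 groups, and the values are a description.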

How the data were processed

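The authors deposited 54675 log2 expression values per array, for 12 arrays. Per the submitters' processing notes they were made with GCRMA, which subtracts a background modelled from probe sequence, normalizes by quantiles and summarizes probe sets; no version or settings are stated in the labels used here. No column was left unused. In the platform annotation 41091 probe sets carry 1 symbol, 1801 carry several, 11721 carry none and 62 are array controls.

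The brightest probe set by mean over the 12 arrays stood for a gene. Genes above a log2 value of 4 on at least 3 arrays were tested in 1 limma fit (limma 3.58.1, R 4.3.3; lmFit and eBayes) of the 4 group means, two-sided, with Benjamini-Hochberg adjustment over all genes tested and a threshold of 0.05. Probe sets were tested in the same way over 19521 probe sets. An exact test of 3 against 3 arrays could not go below 0.1. Members and lists were chosen with earlier results of these data known. All members are named, as are up to 4 genes of smallest p of each related list at each time and the 2 genes most like each member. Of the marker lists, the genes above 4 on all arrays are named; LRP2, CUBN, AQP1 and ICAM1 were added after their values were seen.

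Replicate numbers in the labels were checked as pairs: deviations from group means correlated at 0.28 to 0.70 over 18 pairs of the same number, and 12 of 12 arrays matched best with their own number, so fits with the replicate number as a block are given where they changed a call. The alternatives were no filter, a floor of 6, repeated quantile normalization, median subtraction, the mean of probe sets, testing each probe set separately, a robust variance with an intensity trend, fitting only the groups compared, the replicate block, and leaving out each array. The number of arrays limits the precision.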

Additional observations from a re-analysis of the deposited data

How the results depend on the processing

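On the brightest probe set, the falls of VCAM1, HAVCR1, CD24, CLU and SOX9 at 48 h, and of VCAM1 at 24 h, kept their direction. They passed in 12 of 12 fits that left out 1 array and under each other alternative run. For testing each probe set separately, only the brightest probe set of a gene was counted here. The second SOX9 probe set did not pass at 48 h (limma adjusted p = 0.0856 over probe sets). With 1 array left out, CLU at 48 h came close to the threshold, with an adjusted p up to 0.0497 (without control at 48 h replicate 1). The number of members called at 24 h was 1. It was 2 with an intensity trend and robust variance (7.43% of all genes) and 2 with the replicate block (24.4%). Leaving out 1 array gave 1 to 2, the 2 without Kbr at 48 h replicate 1 (5.94% of all genes). For the difference of the effects the number was 0, and 2 with the replicate block (7.36% of all genes). It was 0 to 1 with 1 array left out, the 1 (CD24) without Kbr at 48 h replicate 3 (4.49% of all genes). For controls over time the number was 2, 1 with no filter (0.936% of all genes) and 0 with only the groups compared (0.0844%). It was 0 to 2 with 1 array left out, where 0.197% to 5.23% of all genes passed. For Kbr cells over time the number was 1, 2 with the intensity trend (12.2% of all genes) and 6 with the replicate block (30.7%). It was 1 to 4 with 1 array left out, the 4 without Kbr at 48 h replicate 3 (20.7% of all genes). At 48 h the number was 5, and 5 to 6 under every alternative run, where 20.2% (no filter) to 57.5% (replicate block) of all genes passed. Besides the calls given with the results, the replicate block changed no other call of the members. With the mean of its probe sets, CD44 had a log2 change of -0.0313 at 24 h and 0.0095 at 48 h, opposite in sign to its brightest probe set; leaving out 1 array gave -0.18 to 0.28 at 24 h and -0.25 to 0.11 at 48 h. CLU at 24 h ranged from -0.226 to 0.0813, the last without control at 24 h replicate 1. HAVCR1 at 24 h passed with the intensity trend (adjusted p = 0.0473) and without Kbr at 48 h replicate 1 (0.0410), SPP1 at 48 h with the mean of probe sets (0.40, adjusted p = 0.0432). The counts over all genes, from which the background shares come, moved too. The 24 h count was 612, 2602 with the replicate block, 408 with only the groups compared, and 81 (without control at 24 h replicate 1) to 767 with 1 array left out, or 0.759% to 7.19% of genes. With 1 array left out the 48 h count of 4564 became 3641 to 4491, the difference count of 15 became 0 to 479 (without Kbr at 48 h replicate 3), the control count over time (3.29% of genes) became 21 (without control at 24 h replicate 3) to 558, and the Kbr count over time of 1135 became 288 (without Kbr at 48 h replicate 2) to 2206 (without Kbr at 48 h replicate 3). Under the replicate block the counts for the difference, controls over time and Kbr cells over time were 785, 2404 and 3273. The cause was not tested. Values near 4 are limited by signal over background. A fit of only the groups compared was not run for the difference of the effects, as all 4 groups are in it, and PROM1 had no value with a floor of 6.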
